A study of Drosophila melanogaster with 18 samples.

Results

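The 8 Hox genes of *Drosophila* and the 2 homeodomain genes whose products act as Hox cofactors, *hth* and *exd*, were followed through libraries of TRAP and total mRNA from male and female pupae. Members were the exon records, each 1 exon of 1 annotated transcript, whose gene carries 1 of these 10 symbols in FlyBase. They were 98 of the 87508 exon records counted, and 10 of 17753 genes. TRAP, translating ribosome affinity purification, recovers mRNA bound to a GFP-tagged ribosomal protein that is made only where a Gal4 driver is active. In this study the driver was *fru P1-Gal4* and the tagged protein GFP::RpL10A. The purification was thus designed to enrich for mRNA of cells that used the P1 promoter of *fruitless*. Male-specific proteins of this gene direct courtship behavior. Whole pupae at 48 hr after puparium formation (APF) were sorted by sex, and each TRAP sample had its total mRNA drawn from 1 shared lysate. The libraries formed 4 groups: male TRAP (n = 5), male total mRNA (n = 5), female TRAP (n = 4) and female total mRNA (n = 4).

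All 18 libraries shared 1 genotype, w/(w or Y); UAS-Gal4/UAS-GFP::RpL10A; fru P1-Gal4/+, so total mRNA was also taken from animals carrying the driver and the tagged ribosome. Each library came from a pool of pupae, and the labels do not say whether replicates were separate cultures, so the p-values measure the spread between these pooled samples. Whole pupae were used, so any cells outside the brain in which the driver was active also entered the TRAP samples. In whole-animal mRNA, fewer cells of a type and less RNA per cell cannot be told apart.

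Hox genes encode homeodomain transcription factors that give each segment its identity. They lie on chromosome arm 3R in the Antennapedia complex (*lab*, *pb*, *Dfd*, *Scr* and *Antp*) and the Bithorax complex (*Ubx*, *abd-A* and *Abd-B*), in the order of the body regions they pattern from head to tail. In the pupal nervous system they help set which neurons survive, how segmental circuits are wired and which neurons of a segment differ between the sexes. Exd, a PBC-class homeodomain protein, binds DNA beside Hox proteins and raises their specificity, and Hth, a Meis-class homeodomain protein, brings Exd into the nucleus and joins the same complexes.

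On build dm6 the head genes *lab* (FBgn0002522), *pb* (FBgn0051481) and *Dfd* (FBgn0000439) spanned 3R positions 6661427 to 6678590, 6707800 to 6742063 and 6791836 to 6802428. *Scr* (FBgn0003339) lay at 6823120 to 6849981 and *Antp* (FBgn0260642) at 6896253 to 6999228, a span of 103 kb. *Ubx* (FBgn0003944) lay at 16656623 to 16734426, *abd-A* (FBgn0000014) at 16807214 to 16830049 and *Abd-B* (FBgn0000015) at 16927212 to 16972236. *hth* (FBgn0001235) spanned 132 kb of the same arm, 10507561 to 10639568, whereas *exd* (FBgn0000611) was a compact gene of 4.0 kb on the X chromosome at 15992468 to 15996509. The number of exon records ran from 4 for *Scr* to 21 for *hth*. The 3R genes other than *Dfd* are read on the minus strand, so their 5′ exons have the highest coordinates.

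Libraries held 24901633 to 67491630 counts. *fru*, summed over the whole gene, was higher in TRAP than in total mRNA in males (log2 fold change 2.24) and in females (1.51). For the exons of *fru* specific to P1, the study reported enrichment in TRAP at this stage that fell short of its significance threshold. The 14 neuronal markers summed to 6823 to 11618 CPM (counts scaled to a common library total) in male TRAP, against 1557 to 2307 in male total mRNA, and to 7712 to 11630 in female TRAP, against 2223 to 3701 in female total mRNA. The 7 fat body markers were also higher in TRAP in both sexes, at 4059 to 13439 CPM in male TRAP, against 1163 to 1532 in male total mRNA, and 12612 to 23974 in female TRAP, against 1838 to 2108 in female total mRNA. Neither list had a marker with a group mean of 0. The 10 male germline markers summed to 1501 to 6503 CPM in male TRAP, against 11.1 to 35.3 in female TRAP, and to 3102 to 4420 in male total mRNA, against 5.23 to 65.6 in female total mRNA. The part of these cell types in the Hox results was not tested.

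Levels were first compared between genes as CPM per kb of exon, which corrects for length. *hth* was by far the most abundant member in all groups, with means per kb of 134 CPM in male TRAP and 28.9 CPM in male total mRNA, and of 129.7 CPM in female TRAP and 54.0 CPM in female total mRNA. The summed level of the 8 Hox genes was 33.3 ± 6.85 CPM per kb in male TRAP and 16.5 ± 1.59 CPM per kb in male total mRNA (SD, n = 5 each). In females the sum was 40.2 ± 5.97 in TRAP and 27.6 ± 3.65 in total mRNA (SD, n = 4 each). The TRAP and total mRNA libraries did not overlap in this sum in either sex.

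Among the Hox genes the trunk genes stood above the head genes. In male TRAP the order in CPM per kb (mean ± SD, n = 5) was *Antp* (10.4 ± 2.72), *Ubx* (7.57 ± 2.48), *abd-A* (7.56 ± 0.920), *Scr* (3.09 ± 0.622), *Abd-B* (2.01 ± 0.436), *lab* (1.13 ± 0.241), *pb* (1.003 ± 0.295) and *Dfd* (0.491 ± 0.128). The libraries of *Antp*, *Ubx* and *abd-A* overlapped in their ranges, as did those of *lab* and *pb*. In female TRAP *Antp* (12.8 ± 2.72) and *abd-A* (12.6 ± 0.995) led, ahead of *Ubx* (7.30 ± 1.47), *Scr* (4.06 ± 1.97), *Abd-B* (1.54 ± 0.223), *pb* (0.903 ± 0.306), *Dfd* (0.519 ± 0.203) and *lab* (0.475 ± 0.0577). The means of *Antp* and *abd-A* differed by less than their SDs, as did those of *Dfd* and *lab*. Only in female TRAP replicate 2 was *Dfd* above *lab* (0.822 and 0.470 CPM per kb), and in the other 3 libraries it was below *lab*. The per-kb level of *Abd-B* counts long 5′ exons that were hardly read in any group, so it is a low estimate.

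**Figure D1:**
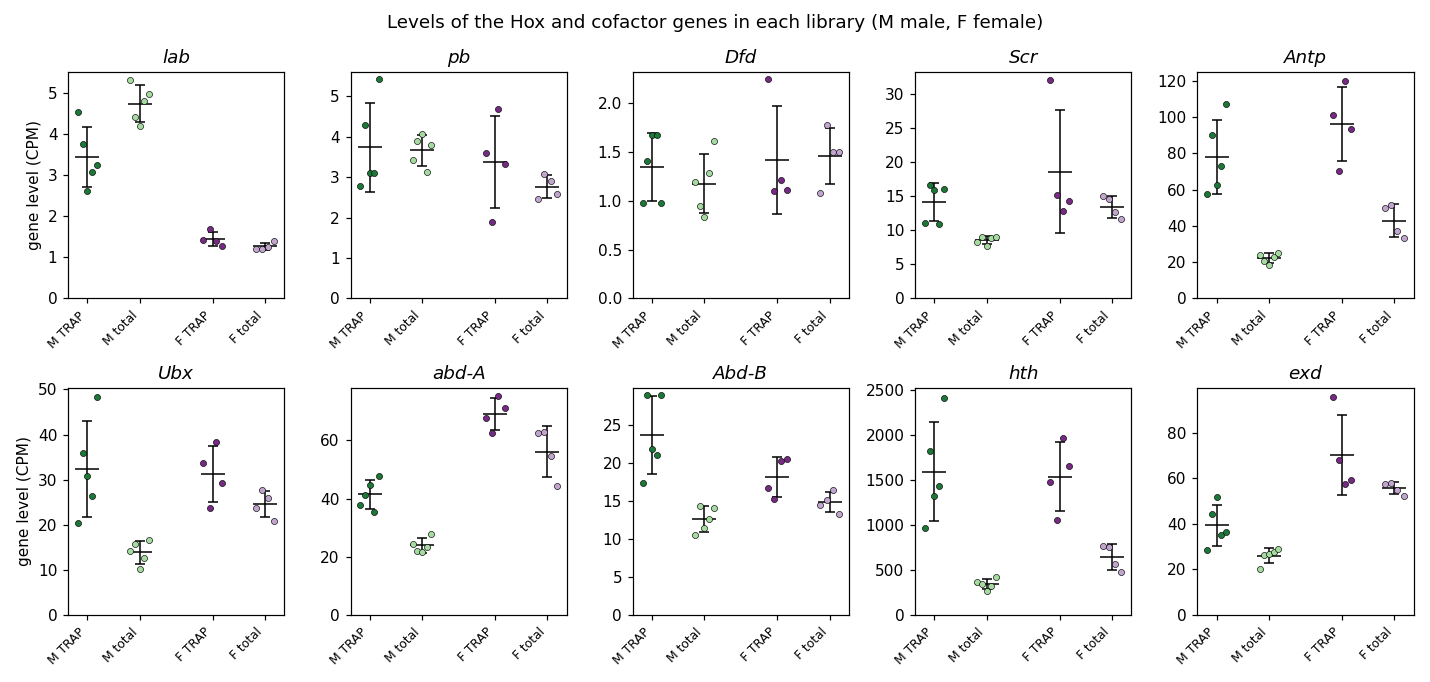
Gene level of each member in CPM (y axis, linear and scaled to each gene) in each library, with TRAP left of total mRNA for males and then for females. Points are libraries and bars are the group mean and SD; the lowest library of *hth* is at 266 CPM, while the highest of *Dfd* is at 2.25 CPM.

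In males, TRAP libraries were enriched for both cofactors and for the trunk Hox genes from *Scr* to *Abd-B*, and not for the 3 head genes. By edgeR's quasi-likelihood test with Benjamini-Hochberg adjustment over 12633 genes, 7 of 10 members were higher in male TRAP and 0 were lower. Of all genes tested, 34.4% were called higher and 33.2% lower. The median log2 fold change was 0.84 over the members and -0.02 over all genes. Values below are in CPM, with libraries in the order of their replicate numbers, 1, 2, 3, 5 and 6 in males and 2 to 5 in females.

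The Hth cofactor led this comparison. *hth* had 963, 1824, 1321, 1428 and 2412 CPM in male TRAP, against 365, 344, 266, 318 and 419 CPM in male total mRNA. The lowest TRAP library was above the highest total mRNA library, and the log2 fold change was 2.30 (SE 0.24, adjusted p = 7.93e-06). For *exd*, TRAP libraries had 28.6, 44.5, 51.9, 34.9 and 36.5 CPM, against 20.3, 26.1, 26.7, 27.7 and 28.7 in total mRNA. One TRAP library, replicate 1, lay just under the highest total mRNA library, and the fold change was 0.69 (SE 0.13, adjusted p = 0.000775).

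*Antp*, which specifies the second thoracic segment and its legs, was the most enriched Hox gene. It had 57.7, 89.9, 62.6, 73.1 and 107 CPM in male TRAP, against 24.2, 20.7, 18.6, 22.95 and 24.9 CPM in male total mRNA, with no overlap. Its log2 fold change was 1.90 (SE 0.18, adjusted p = 4.84e-06). *Ubx*, the gene of the third thoracic segment and the haltere, had 20.4, 35.9, 30.8, 26.4 and 48.4 CPM in male TRAP, against 14.2, 15.8, 10.1, 12.6 and 16.6 CPM in male total mRNA. All TRAP libraries were again the higher ones, and the fold change was 1.31 (SE 0.22, adjusted p = 0.000258).

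The abdominal genes and *Scr* followed. *Abd-B*, which patterns the posterior abdomen and the genitalia, had 17.4, 29.0, 21.9, 21.1 and 29.0 CPM in male TRAP, against 10.5, 14.4, 11.5, 12.6 and 14.1 CPM in male total mRNA. *abd-A*, which patterns the anterior and middle abdomen, had 37.9, 41.3, 44.8, 35.3 and 47.8 CPM in male TRAP, against 24.4, 22.01, 21.8, 23.2 and 28.0 CPM in male total mRNA. *Scr*, the gene of the labial and the first thoracic segment and of the sex comb, had 11.1, 16.7, 15.9, 11.0 and 16.04 CPM in male TRAP, against 8.35, 9.02, 7.73, 8.84 and 8.95 CPM in male total mRNA. In none of these genes did the groups overlap. The log2 fold changes were 1.00 for *Abd-B* (SE 0.15, adjusted p = 0.000114), 0.88 for *abd-A* (SE 0.11, adjusted p = 3.63e-05) and 0.81 for *Scr* (SE 0.13, adjusted p = 0.000211). In all, 6 members had every TRAP library above every total mRNA library, which 20.9% of tested genes also did. When only records that overlap no other record were summed, which leaves out both ends of *abd-A*, that gene was at -0.16 (adjusted p = 0.627).

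The 3 head genes were at low levels and were not enriched. *lab*, which acts in the brain primordium next to the gut opening and in the copper cells of the midgut, had 4.53, 3.76, 2.61, 3.07 and 3.24 CPM in male TRAP, against 5.31, 4.42, 4.19, 4.804 and 4.98 CPM in male total mRNA. Only TRAP replicate 1 reached into the total mRNA range, and the log2 fold change was -0.38 (SE 0.17, adjusted p = 0.0653). TRAP and total mRNA with 1 number came from 1 lysate, and with the lysate as a block *lab* passed the test as lower in TRAP (-0.38, adjusted p = 0.0247). It also passed without male TRAP replicate 1 (-0.51, adjusted p = 0.00739). *pb*, which forms the proboscis, had 2.78, 4.28, 3.10, 3.11 and 5.42 CPM in male TRAP, against 3.43, 3.88, 4.05, 3.12 and 3.80 CPM in male total mRNA, a fold change of 0.14 (adjusted p = 0.519). *Dfd*, the gene of the mandibular and maxillary segments, had 0.978 to 1.68 CPM in male TRAP, against 0.838 to 1.62 CPM in male total mRNA, a fold change of 0.24 (adjusted p = 0.369). The libraries of both genes overlapped widely.

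In females, *hth* and *Antp* were enriched in TRAP, and no other member passed the same test. That was 2 of 10 higher and 0 lower, beside 28.1% higher and 26% lower among 10854 genes. *hth* had 1473, 1052, 1960.1 and 1655 CPM in female TRAP, against 767, 754, 560.3 and 474 CPM in female total mRNA, without overlap (log2 fold change 1.24, SE 0.22, adjusted p = 0.00108). *Antp* had 101, 70.5, 119.8 and 93.4 CPM in female TRAP, against 49.7, 51.6, 37.0 and 33.4 CPM in female total mRNA, again without overlap (1.14, SE 0.20, adjusted p = 0.000894). Of tested genes, 27.9% also had every female TRAP library above every female total mRNA library.

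The other female values were above 0 for all genes but *Dfd*, at smaller size. *Ubx* had 33.7, 23.7, 38.5 and 29.2 CPM in female TRAP, against 23.7, 27.6, 25.9 and 20.9 CPM in female total mRNA (0.32, adjusted p = 0.107). *abd-A* had 67.8, 62.4, 75.3 and 71.1 CPM in female TRAP, against 62.5, 62.9, 54.8 and 44.5 CPM in female total mRNA (0.27, adjusted p = 0.0842). *Abd-B* had 16.7, 15.3, 20.3 and 20.6 CPM in female TRAP, against 14.5, 15.1, 16.5 and 13.4 CPM in female total mRNA (0.27, adjusted p = 0.0873). TRAP replicate 3 was the lowest TRAP library for each of these genes and lay inside the total mRNA range. Without female TRAP replicate 3 these 3 genes passed, with 0.45 for *Ubx* (adjusted p = 0.0136), 0.34 for *abd-A* (adjusted p = 0.0447) and 0.36 for *Abd-B* (adjusted p = 0.0175), and 5 members were called higher. With non-overlapping records only, *abd-A* (1.75, adjusted p = 0.0402), *Abd-B* (1.12, adjusted p = 0.00239) and *exd* (1.96, adjusted p = 0.00289) passed. This setting drops the last exon of each, which averaged 90.0%, 69.0% and 95.9% of their counts in female total mRNA, so these values rest on a smaller part of the reads.

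*Scr* showed 1 library far from the others. It had 32.0, 15.1, 12.8 and 14.3 CPM in female TRAP, against 14.99, 14.7, 12.7 and 11.6 CPM in female total mRNA. TRAP replicate 2 held more than the other TRAP libraries, which lay close to the total mRNA range. The fold change was 0.43 (SE 0.27, adjusted p = 0.203) with that library and 0.04 without female TRAP replicate 2. *exd* had 95.9, 68.0, 57.7 and 59.2 CPM in female TRAP, against 57.6, 57.9, 54.9 and 52.2 CPM in female total mRNA, and here too TRAP replicate 2 was the highest (0.31, adjusted p = 0.114). For *lab*, *pb* and *Dfd* the fold changes were 0.16, 0.26 and -0.07, and none passed.

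**Figure D2:**
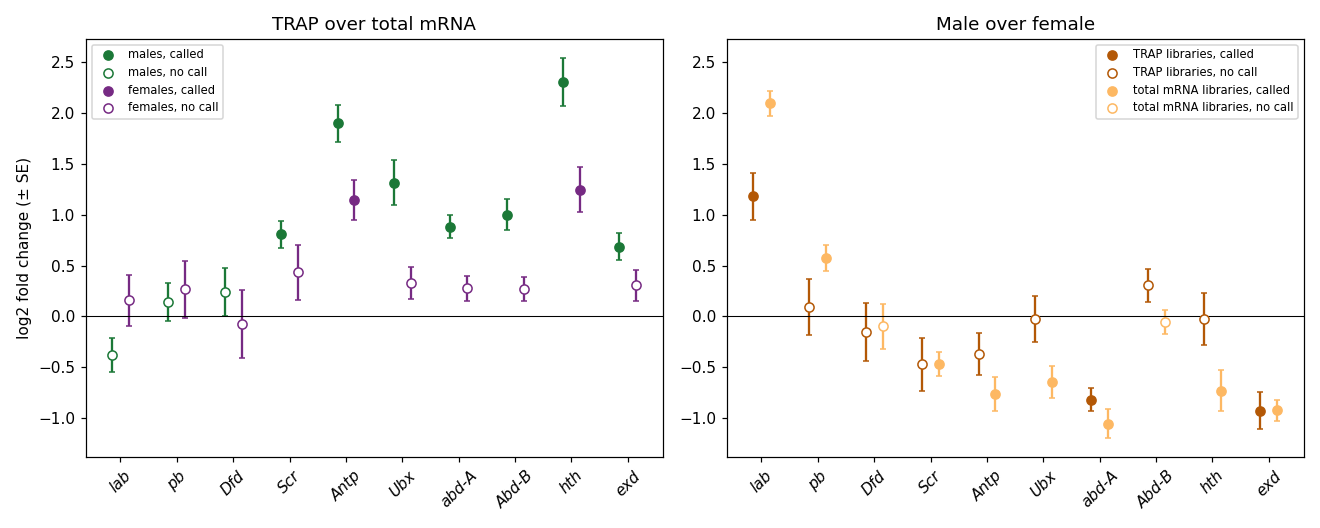
Gene-level log2 fold change of each member (x axis, members in body-axis order and then the cofactors) with its standard error, for TRAP over total mRNA in males and females and for male over female in TRAP and total mRNA. Filled points passed an adjusted p of 0.05; TRAP enrichment in males runs from -0.38 for *lab* to 2.30 for *hth*.

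Whether enrichment differed between the sexes was asked with an interaction term over the 18 libraries. On the TMM scale 6 of 10 members had a larger TRAP over total mRNA ratio in males, beside 39% of 13141 genes called in that direction and 6.38% in the other. These were *hth* (difference of log2 fold changes 1.29, SE 0.34, adjusted p = 0.00675), *Ubx* (1.21, SE 0.30, adjusted p = 0.00435), *Antp* (0.98, SE 0.28, adjusted p = 0.0106), *Abd-B* (0.95, SE 0.21, adjusted p = 0.00211), *abd-A* (0.82, SE 0.18, adjusted p = 0.00228) and *exd* (0.59, SE 0.22, adjusted p = 0.0369). At the level of exon records 37 of 37 tested were larger in males, beside 47.1% of all records in that direction and 13.7% in the other. The median over all genes was itself 0.48 on that scale, beside a members' median of 0.71. With RLE size factors the all-gene median was 0.03 and 0 members were called, with values of 0.80 for *hth*, 0.73 for *Ubx*, 0.50 for *Antp*, 0.48 for *Abd-B*, 0.36 for *abd-A* and 0.13 for *exd*. Scaling by total count alone called 3 members. With non-overlapping records 0 were called higher and *abd-A* was called lower (-2.03, adjusted p = 0.0336). *exd* did not pass when any 1 of 11 libraries was left out (adjusted p = 0.0536 to 0.0800). The calls of a sex difference in enrichment thus depend on the scaling and on the records summed. *Scr* (0.58) passed with the lysate as a block (0.65, adjusted p = 0.0265), and *lab* (-0.33), *pb* (0.10) and *Dfd* (0.54) did not pass.

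In total mRNA the sexes differed for 8 of 10 members, as they did for most genes tested. *lab* and *pb* were higher in males, and *Scr*, *Antp*, *Ubx*, *abd-A* and both cofactors were lower. The test called 2 members higher in males and 6 lower, beside 43.8% and 40.7% of 12572 genes. *lab* had 5.31, 4.42, 4.19, 4.804 and 4.98 CPM in male total mRNA, against 1.20, 1.21, 1.26 and 1.40 CPM in female total mRNA (a log2 change of 2.10, SE 0.12, adjusted p = 4.4e-08). *pb* had 3.12 to 4.05 CPM in male total mRNA, against 2.46 to 3.08 CPM in female total mRNA (0.57, SE 0.13, adjusted p = 0.00186). Neither gene overlapped between the sexes, and 39% of tested genes likewise had every male library above every female library. *Dfd* (-0.10) and *Abd-B* (-0.06) did not pass.

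*abd-A* showed the largest decrease among Hox genes in male total mRNA, with 24.4, 22.01, 21.8, 23.2 and 28.0 CPM in males, against 62.5, 62.9, 54.8 and 44.5 CPM in females (-1.06, SE 0.14, adjusted p = 4.55e-05). This direction is that of its end exons, and with non-overlapping records only, *abd-A* was higher in males (1.83, adjusted p = 0.000931). *exd* had 20.3 to 28.7 CPM in male total mRNA, against 52.2 to 57.9 CPM in female total mRNA (-0.92, SE 0.10, adjusted p = 1.04e-05). *Antp* (-0.77, adjusted p = 0.00158), *hth* (-0.73, adjusted p = 0.00621), *Ubx* (-0.64, adjusted p = 0.00345) and *Scr* (-0.47, adjusted p = 0.0035) were also lower in males. None of the 6 overlapped between the sexes, and 43.2% of tested genes likewise had every male library below every female library. The 10 muscle markers moved the same way, all lower in male total mRNA, and the 10 male germline markers the opposite way, all higher. The part of either tissue in the Hox values was not tested.

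Between the TRAP libraries of the sexes, fewer members differed. *lab* was higher in males, and *abd-A* and *exd* were lower, beside 30.2% higher and 28.4% lower among 12755 genes. *lab* had 4.53, 3.76, 2.61, 3.07 and 3.24 CPM in male TRAP, against 1.43, 1.69, 1.39 and 1.27 CPM in female TRAP (1.18, SE 0.23, adjusted p = 0.00129). *abd-A* had 37.9, 41.3, 44.8, 35.3 and 47.8 CPM in male TRAP, against 67.8, 62.4, 75.3 and 71.1 CPM in female TRAP (-0.82, SE 0.11, adjusted p = 9.26e-05). *exd* had 28.6 to 51.9 CPM in male TRAP, against 57.7 to 95.9 CPM in female TRAP (-0.93, SE 0.19, adjusted p = 0.00153). None of the 3 overlapped between the sexes. Of tested genes, 30.8% were likewise higher without overlap in males and 16.4% lower. The median over all genes was -0.14 in this comparison. With non-overlapping records, which leave out the last exon of both genes, *abd-A* (-0.25, adjusted p = 0.663) and *exd* (-0.61, adjusted p = 0.193) did not pass.

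The other TRAP levels did not separate the sexes. *hth* (-0.02) and *Ubx* (-0.02) were near 0 on the log2 scale. *Antp* was at -0.37 and passed only when male TRAP replicate 6, its highest male library, was left out (-0.51, adjusted p = 0.0465). *Scr* was at -0.47, and at -0.09 without female TRAP replicate 2. *Abd-B*, with 17.4 to 29.0 CPM in male TRAP and 15.3 to 20.6 CPM in female TRAP, was at 0.30 (adjusted p = 0.133), and passed as higher in males with RLE size factors (0.41, adjusted p = 0.0342) and with DESeq2 (0.42, adjusted p = 0.0246). *pb* was at 0.09 and *Dfd* at -0.15.

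Dividing each Hox gene by the summed per-kb level of the 8 gives the mix of Hox transcripts in a library, which does not depend on library scaling. The shares of a library are tied to each other, so a larger share of a gene lowers those of the others. Differences in these shares were tested with 32 two-sided exact permutation tests over libraries, and p-values are unadjusted. The smallest possible was 0.00794 with 5 against 5 or 5 against 4 libraries and 0.0286 with 4 against 4. These tests exchanged libraries freely and ignored that TRAP and total mRNA of 1 number came from 1 lysate. The exact p-values of TRAP against total mRNA are thus those of an unpaired test, and no paired test of the shares was run. *Antp* made up 31.1% ± 2.92 of the sum in male TRAP and 18.01% ± 1.06 of it in male total mRNA (SD, n = 5 each), a difference of 13.1 percentage points (exact p = 0.00794). In females its share was 31.6% ± 2.67 in TRAP and 20.6% ± 1.98 in total mRNA (SD, n = 4 each), a difference of 11.1 points (exact p = 0.0286). The shares of *Antp* in TRAP were thus near each other in the sexes and above those of total mRNA.

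The head genes took up less of the male TRAP mix. *lab* made up 3.55% ± 1.30 of the sum in male TRAP and 9.47% ± 0.692 of it in male total mRNA, and *pb* 2.98% ± 0.272 of it in male TRAP and 6.01% ± 1.00 of it in male total mRNA (SD, n = 5 each, exact p = 0.00794 for each). *Dfd* (-1.05 points, exact p = 0.0159) and *Scr* (-2.08 points, exact p = 0.0238) also had smaller shares in male TRAP, although the CPM of *Scr* was higher there. In females *abd-A* had the smaller share in TRAP, 31.7% ± 3.24, against 37.1% ± 1.27 in total mRNA (SD, n = 4 each, exact p = 0.0286).

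Between the sexes, the mix differed most in *abd-A*. It held 23.1% ± 3.11 in male TRAP and 31.7% ± 3.24 in female TRAP, and 26.5% ± 1.34 in male total mRNA and 37.1% ± 1.27 in female total mRNA (exact p = 0.00794 for both, n = 5 and 4). The share of *abd-A* is set mainly by its last exon. With non-overlapping records its gene-level sex difference in total mRNA reversed, and shares were not recomputed on those records. *Abd-B* had larger shares in males, 6.03% ± 0.403 in male TRAP and 3.87% ± 0.542 in female TRAP (exact p = 0.00794, n = 5 and 4). *Ubx* also had the larger share in male TRAP, 22.3% ± 2.81, against 18.04% ± 1.20 in female TRAP (exact p = 0.0317, n = 5 and 4). In all, 5 shares differed at an unadjusted 0.05 between male TRAP and male total mRNA, 2 between female TRAP and female total mRNA, and 5 between the sexes in each of TRAP and total mRNA. As shares are tied, these are not independent.

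**Figure D3:**
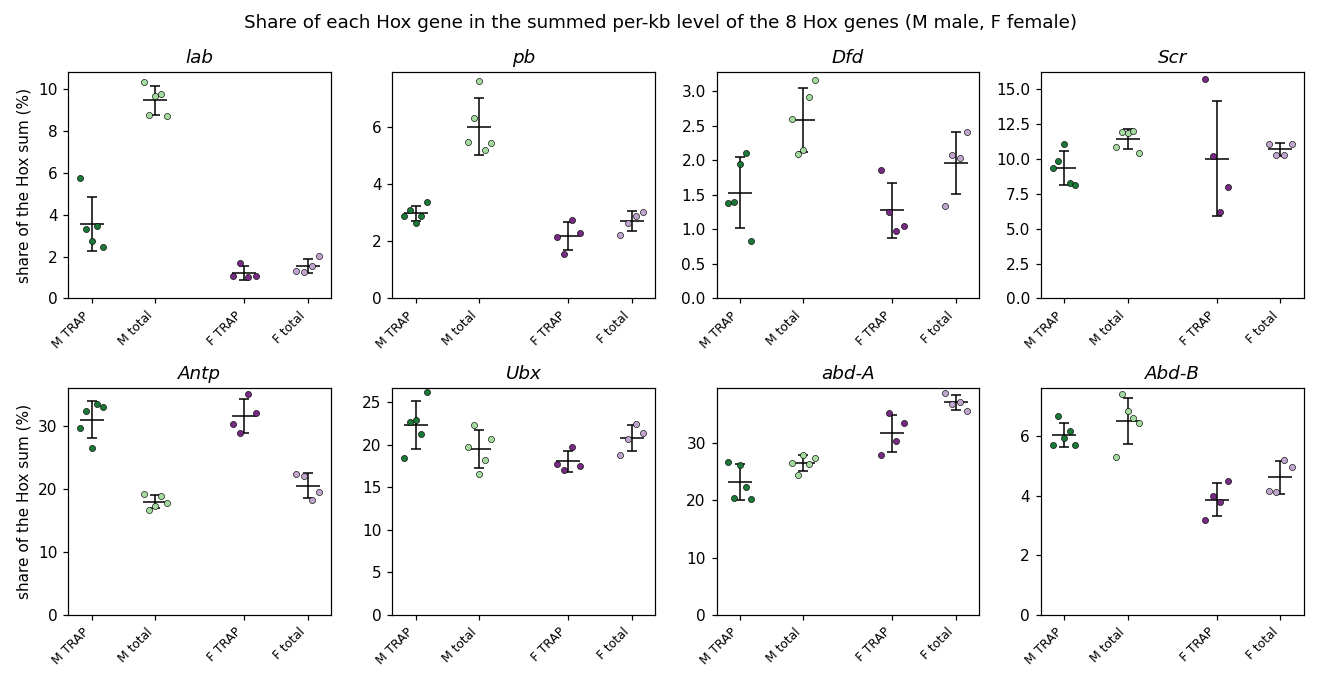
Share of each Hox gene (y axis, percent) in the summed per-kb level of the 8 Hox genes in each library, with group means and SDs. The share of *Antp* is 26.6% to 35.2% in TRAP and 16.7% to 22.4% in total mRNA, and that of *abd-A*, set mainly by its last exon, is lower in males.

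At the level of single exon records, tests used edgeR's exact test on records above 2 CPM in at least 60% of the libraries, at an adjusted p of 0.2. In males 28 of 29 tested member records were higher in TRAP and 0 lower, beside 38.3% and 39.7% of 30040 records. In females 22 of 34 were higher and 2 lower, beside 35.6% and 33.5% of 25115 records. Between the sexes, 3 of 37 member records were higher and 6 lower in male TRAP (backgrounds 23.1% and 18.2%), and 2 of 27 were higher and 21 lower in male total mRNA (38% and 38.7%). Records that share exons share reads, so these are not independent. No record of *lab*, *pb* or *Dfd* reached 2 CPM in enough libraries, and 43 of the 98 member records overlap another record of their gene.

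The records of 1 gene did not move alike, and in *Antp*, *Ubx*, *abd-A* and *Abd-B* the first exon tested was more enriched in TRAP than the last. For *Antp* the outer 5′ UTR exon at 6998206 to 6999228, the start of transcripts from the distal P1 promoter, had a log2 fold change of 2.90 in males and 2.16 in females. The last exon of the same gene, at 6896253 to 6898538 with the end of the coding region and the 3′ UTR, had 1.36 in males and 0.54 in females. The ratio of counts in the 5′ record to counts in this 3′ record was 0.513, 0.797, 0.472, 0.639 and 1.17 in male TRAP, against 0.276, 0.245, 0.225, 0.255 and 0.248 in male total mRNA. In females it was 0.521, 0.780, 1.12 and 0.964 in TRAP, against 0.281, 0.277, 0.262 and 0.251 in total mRNA. Every TRAP library was above every total mRNA library of its sex. The last exon shares bases with CG46458, an overlapping gene on the same strand, as do 7 of the 11 *Antp* records, so reads there cannot be divided between the genes; the outer exon is free of it.

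*Abd-B* had a gap between its ends of 1.82 on the log2 scale in males and 1.52 in females. Its exon at 16932371 to 16934242 opens the long protein form of 493 codons and had 6.38, 10.8, 6.29, 7.19 and 11.0 CPM in male TRAP, against 1.83, 2.22, 1.94, 2.13 and 3.002 CPM in male total mRNA (log2 fold change 2.05, adjusted p = 4.65e-19). Its last exon, at 16927212 to 16929580, had 5.16, 7.39, 7.40, 6.10 and 6.53 CPM in male TRAP, against 5.24, 7.42, 5.67, 6.28 and 6.17 CPM in male total mRNA (0.23, adjusted p = 0.140). The first exon separated the groups, whereas the last passed the record threshold with overlapping libraries. In females the first exon was higher in TRAP (1.09, adjusted p = 1.66e-05) while the last exon was lower (-0.42), as was its shorter version at 16927667 to 16929580 (-0.45, adjusted p = 0.00656). The gene-level value of *Abd-B* therefore averages records that differ in direction in females.

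*Ubx* and *abd-A* showed the same arrangement. The first exon of *Ubx*, at 16732698 to 16734426, had 3.48, 10.45, 6.91, 6.12 and 16.02 CPM in male TRAP, against 1.32, 1.97, 1.23, 1.41 and 2.51 CPM in male total mRNA (2.49, adjusted p = 6.08e-11). Its last exon, at 16656623 to 16659073, which encodes the homeodomain, was at 0.81 in males. In females the values were 1.34 for the first exon (adjusted p = 1.01e-05) and 0.00 for the last. For *abd-A*, the outer first exon at 16828921 to 16830049 was at 1.55 in females (adjusted p = 1.38e-06) and the last exon at 16807214 to 16810061 at -0.00. In males that first exon averaged 5.89 CPM in TRAP and 1.10 CPM in total mRNA, too low in total mRNA for the filter, and the last exon was at 0.68 (adjusted p = 2.05e-07).

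For *exd*, *Scr* and *pb*, whose 5′ records fell under the filter, the same test was run on all records with counts. Of these records, 33.7% were called higher and 30.3% lower in male TRAP and 28.6% and 19.6% in female TRAP. The exons of *exd*, in order from the 5′ end, gave 2.696, 2.81, 1.86 and 1.34 and then 0.39 for the last in males, and 2.75, 2.46, 2.13 and 1.03 and then 0.05 in females. Its alternative first exons, at 0 or 1 count in every library, are left out. The first exon given held 3, 9, 7, 5 and 6 counts in male TRAP, against 1, 1, 2, 0 and 1 in male total mRNA. In females it held 36, 11, 5 and 10 in TRAP, with replicate 2 the highest, against 1, 0, 3 and 1 in total mRNA. The second exon of *Scr*, at 6841235 to 6842214, where its coding region starts, gave 2.04 in males and 1.59 in females, at only 0.56 CPM in male TRAP, 0.13 in male total mRNA, 0.70 in female TRAP and just 0.21 in female total mRNA. The female value rests largely on TRAP replicate 2, which held 84 counts, against 13, 6 and 31 in female TRAP replicates 3, 4 and 5. Female total mRNA libraries held 7, 4, 7 and 6. The first exons of *pb* gave 1.01 and 1.13 in males and 0.78 and 1.68 in females, whereas its exon at 6709616 to 6710373 was lower in TRAP in both sexes (-1.03 and -1.01). The gene-level fold change of *pb*, 0.14 in males, thus sums records called in opposite directions.

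This gradient was set against all genes with at least 2 tested records. The difference of the 5′-most minus the 3′-most log2 fold change was 1.54 for *Antp*, 1.67 for *Ubx*, 1.82 for *Abd-B* and 1.23 for *hth* in males, where the median over 5319 genes was -0.38. In females it was 1.62 for *Antp*, 1.34 for *Ubx*, 1.55 for *abd-A*, 1.52 for *Abd-B* and 0.97 for *hth*, and the median over 4410 genes was 0.15. Among genes with a 3′ record of at least 2 kb and ends at least 10 kb apart, limits chosen after the values were seen, the median was 0.29 in males (n = 255) and 0.25 in females (n = 276). Against those genes the members stood at percentiles 85.5 to 94.9 in males and 80.8 to 93.8 in females. Only members with both ends above the filter enter these values. The outermost exon of *hth*, at 10638624 to 10639568, was under the filter, and in the unfiltered test it was at 1.06 in males and 0.44 in females, beside 1.26 and 0.36 for the last exon.

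The share of a gene's counts that fell in its 3′-most record gives the same picture without a test. For *Abd-B* it averaged 42.2% in male TRAP, below 70.4% in male total mRNA, and 43.7% in female TRAP, below 69.0% in female total mRNA. For *Antp* it was 45.9% in male TRAP, below 63.3% in male total mRNA, and for *Ubx* 59.4% and 79.8%. Over all genes the median of this share was 69.6% in male TRAP, above 65.4% in male total mRNA, and 69.5% in female TRAP, below 71.9% in female total mRNA. The mean share was lower in TRAP in both sexes for 8 members, the exceptions being *lab* and *Dfd*. How many of all genes were lower in both sexes was not counted. *lab* had 60.02% in male TRAP, above 49.5% in male total mRNA, and 83.6% in female TRAP, above 74.7% in female total mRNA. *Dfd* had 69.5% in male TRAP, above 62.2% in male total mRNA, and 70.6% in female TRAP, near 70.7% in female total mRNA. The libraries of *lab* and *Dfd* overlapped between TRAP and total mRNA in both sexes.

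**Figure D4:**
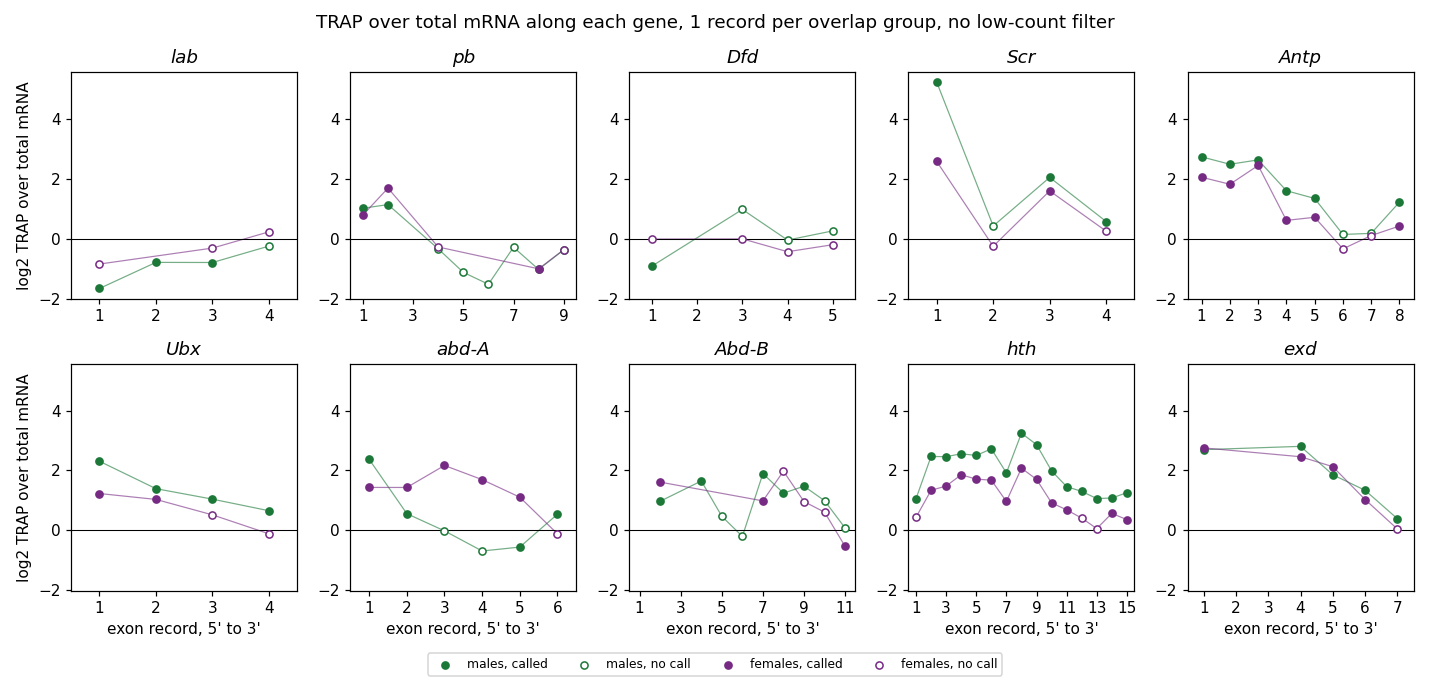
Log2 fold change of TRAP over total mRNA (y axis) for the longest exon record of each overlap group in each of the 10 members (x axis, records in order from 5′ to 3′), in males and females, tested with no filter on low counts. Filled points passed an adjusted p of 0.2. The records of *exd* run from 2.696 at the first exon to 0.39 at the last in males and from 2.75 to 0.05 in females. That first exon held only 0 to 3 counts in each total mRNA library.

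Exon usage, the fold change of each record relative to the rest of its gene, was tested with edgeR's diffSpliceDGE and Simes-adjusted p-values per gene. TRAP and total mRNA differed in usage for *Abd-B* (adjusted p = 6.11e-05), *Antp* (adjusted p = 0.00103) and *Ubx* (adjusted p = 0.00352) in males, where 38.7% of genes tested did. In females *abd-A* (adjusted p = 0.00119), *Abd-B* (adjusted p = 0.00303), *Antp* (adjusted p = 0.00574) and *Ubx* (adjusted p = 0.00708) differed, where 19.3% of genes did. In each of these genes the first exon described above was used more in TRAP. No member differed in usage between the sexes, in TRAP (5 members tested) or in total mRNA (3 tested), where 3.74% and 31.8% of genes did. Those 3 were *Antp*, *Abd-B* and *hth*, so the test gives no result for *abd-A* or *Ubx* in total mRNA.

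*hth* makes a long form with the homeodomain, 487 or 472 codons, and a short form of 266 codons that ends before it, and the ends of these forms lie far apart. The short-form end at 10581406 to 10585928 had 289, 428.5, 339, 372 and 509 CPM in male TRAP, against 117, 97.4, 77.1, 92.2 and 120.3 CPM in male total mRNA (log2 fold change 2.08). The long-form end at 10507561 to 10511537 had 65.0, 82.2, 70.3, 73.1 and 87.7 CPM in male TRAP, against 35.0, 31.9, 21.6, 29.6 and 38.0 CPM in male total mRNA (1.42). The count ratio of the long-form end to the short-form end was 0.199 ± 0.019 in male TRAP, below 0.309 ± 0.019 in male total mRNA (SD, n = 5 each). In females the ratio was 0.209 ± 0.017 in TRAP and 0.319 ± 0.017 in total mRNA (SD, n = 4 each). TRAP and total mRNA libraries did not overlap in either sex, and the sexes differed by less than 1 SD within each kind of library. The short-form end record also holds a coding exon of the long form, 10585743 to 10585928, so the ratio does not separate the forms fully. Exons of the long form alone did not move alike. In male TRAP that at 10561909 to 10562032 had 97, 493, 174, 218 and 557 counts, against 35, 28, 14, 45 and 65 in male total mRNA. That at 10511759 to 10511817 had 24, 96, 60, 63 and 127, against 42, 31, 30, 47 and 53. The gene-level usage test did not pass for *hth* in males (adjusted p = 0.0611) or females (adjusted p = 0.100).

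The starts of transcripts were compared for *Antp*, *Abd-B* and *abd-A*. For *Antp*, counts in the exon that opens transcripts from the inner P2 promoter, at 6931519 to 6932840, were 0.069 ± 0.027 of those in the P1 exon in male TRAP and a like 0.068 ± 0.020 in male total mRNA (SD, n = 5 each). In females this ratio was 0.053 ± 0.037 in TRAP and 0.034 ± 0.016 in total mRNA (SD, n = 4 each), so the groups overlapped. The upstream first exons of *Abd-B* that open the short protein forms of 270 to 323 codons were near 0 in all groups. For both genes, 1 start carried most of the reads in TRAP and total mRNA alike. For *abd-A*, counts in the inner first exon at 16827135 to 16828105 were 0.166 ± 0.044 of those in the outer first exon in male TRAP and 0.612 ± 0.227 of them in male total mRNA (SD, n = 5 each), and no library of either group overlapped the other. In females the ratio was 0.141 ± 0.067 in TRAP and 0.167 ± 0.108 in total mRNA (SD, n = 4 each), with overlap. All male total mRNA libraries lay above all female total mRNA libraries. The inner exon holds bases of the second exon of transcripts from the outer start, and the ratio does not separate the starts fully.

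Records of *lab* and *abd-A* were looked at because their gene-level values differed between the sexes, and the records named here were chosen after their values were seen. *lab* has a long form of 629 codons and a short form of 213 codons, which starts inside the gene and retains the homeodomain end. The first exon of the short form, at 6663184 to 6663454, had 9, 21, 8, 10 and 8 counts in male TRAP, against 0, 0, 0 and 0 in female TRAP. It had 19, 16, 20, 28 and 35 counts in male total mRNA, against 1, 1, 0 and 0 in female total mRNA. Pooled male TRAP was at least 18.8-fold higher than the limit of 3 counts over the female TRAP group. The first exon of the long form, at 6677131 to 6678590, held 7 counts in male TRAP, 28 in male total mRNA, 10 in female TRAP and another 11 in female total mRNA, summed over libraries, so the full-length start was hardly read in any group. The exon shared by both forms was higher in males in TRAP (2.78) and in total mRNA (3.402), as was the last exon (0.98 and 1.66), in the unfiltered test, where 24.2% of records were called higher in male TRAP and 39.1% of them in male total mRNA. Counting error alone is large at these levels.

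Within *abd-A*, exons moved in opposite directions in total mRNA. The summed level of the 3 inner coding exons was 1.29, 1.22, 1.59, 1.34 and 1.61 CPM in male total mRNA, against 0.241, 0.0941, 0.850 and 0.455 CPM in female total mRNA. In the unfiltered test, which also gave the TRAP values below, each of the 3 was higher in males (log2 fold changes 2.05, 1.91 and 2.03). So was the exon at 16827135 to 16828105, where the coding region starts (0.87, adjusted p = 0.00381, with overlapping libraries). The outer first exon (-1.21) and the last exon (-1.08) were lower. That test called 39.1% of all records higher and 26% lower in male total mRNA. In the filtered test the 2 records of the last exon were at -0.95. In TRAP the 3 inner coding exons summed to 1.01, 1.43, 1.08, 0.399 and 1.40 CPM in males, against 2.37, 0.570, 1.41 and 1.08 CPM in females, with wide overlap. In females they were higher in TRAP than in total mRNA (2.17, 1.70 and 1.11), and in males 2 did not pass and the last was lower (-0.01, -0.69 and -0.56). These exons carry a small part of the counts, and the last exon, which held 90.0% of *abd-A* counts in female total mRNA, sets the gene-level value.

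**Figure D5:**
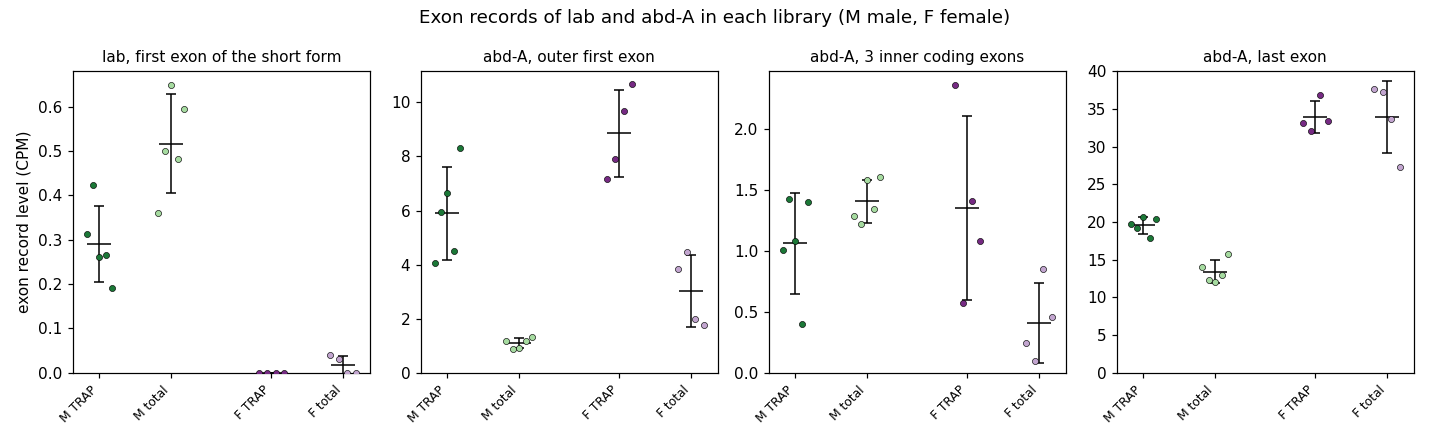
CPM of the first exon of the short *lab* form and of the outer first exon, the 3 inner coding exons and the last exon of *abd-A* in each library (y axis), with group means and SDs. The *lab* exon is read in all male libraries and in no female TRAP library, and the inner and last exons of *abd-A* differ in opposite directions between male and female total mRNA.

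Genes inside the Hox complexes that are not Hox genes gave a local background. Of 22 listed, 7 were tested in males and 4 were higher and 2 lower in TRAP, beside 34.4% and 33.2% of all genes. *Edg84A*, a cuticle gene, was the most enriched of them in males (2.04). *Ama*, which encodes a secreted immunoglobulin-domain protein and lies in the Antennapedia complex, was higher in TRAP in males (1.24) and females (1.47). The long noncoding RNA *lncRNA:iab8*, made in the Bithorax complex, was also higher in TRAP in males (1.30, adjusted p = 0.000245) and females (0.90, adjusted p = 0.0166), with no call between the sexes. Other neighbours were read almost only in males: *ftz*, a pair-rule gene beside *Scr*, was lower in male TRAP than in male total mRNA (-0.58) and averaged 5.48 CPM in male TRAP, 8.70 in male total mRNA, 0.179 in female TRAP and only 0.271 in female total mRNA. *Glut3*, a sugar transporter gene, and CG31275 were also higher in male total mRNA (6.93 and 6.76 on the log2 scale). These 3 genes, like the short *lab* form, were high where the male germline markers were high, and the part of the germline was not tested.

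Of genes known as Hox targets, 14 of 15 tested were higher in male TRAP than in male total mRNA and 0 lower, beside 34.4% and 33.2% of all genes, with a median log2 fold change of 1.29, beside -0.02 over all genes. The cell death gene *rpr* (5.01) and the neural gene *sca* (2.96) had the largest values, and *salm*, named for being the only exception, was at 0.13 and did not pass. In females 8 of 16 were higher and 2 lower, beside 28.1% and 26% of all genes, led by the cell death genes *rpr* (4.15) and *grim* (2.85), and *salm* (-0.44) and *kni* (-0.43) were lower. In total mRNA 13 of 14 were lower in males, where 40.7% of all genes were, led by *bab2* (-0.92), a repressor of abdominal pigment, and *pnt* (-0.77), and in TRAP only *bab2* differed between the sexes (-0.65). Of 7 tested genes of abdominal pigmentation, 6 were higher in male TRAP than in male total mRNA, led by *bab1* (1.40) and *ple* (1.00), and 3 were higher in female TRAP, with 1 lower (*e*, -0.29). In male TRAP against female TRAP, *t* (-1.03) and *e* (-0.96) were lower, beside *bab2*.

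Among 14 other partners of Hox proteins and TALE-class homeodomain genes, 7 were higher and 3 lower in male TRAP than in male total mRNA, beside 34.4% and 33.2% of all genes. *disco-r* (1.41) and the GATA factor gene *grn* (1.38) rose, and *tio* (-0.93) and *vis* (-0.75) fell. In females 3 were higher and 1 lower, beside 28.1% and 26% of all genes. *vis* and *tio* were higher in males in TRAP (2.52 and 2.08) and in total mRNA (3.96 and 3.36), but *achi*, a near-identical copy of *vis*, may share reads with it, and *tsh* is a relative of *tio*. Of 11 tested genes of head and brain patterning, male TRAP was higher for 5 and female TRAP for 4, led by *toy* (1.20 and 1.03) and *oc* (1.16 and 0.88).

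The Polycomb and trithorax groups, which keep Hox genes silent or active, moved in both directions. Of 22 Polycomb group genes 12 were higher and 5 lower in male TRAP than in male total mRNA, with *Jarid2* (1.32) and *Scm* (-0.71) at the ends, and 3 were higher and 3 lower in female TRAP. Of 25 trithorax group genes 12 were higher and 4 lower in male TRAP, from *fs(1)h* (1.79) to *Bap111* (-1.15), and 6 were higher and 9 lower in female TRAP. Of all genes 34.4% were higher and 33.2% lower in male TRAP, and 28.1% and 26% in female TRAP. Between the sexes in total mRNA, 8 Polycomb group genes were higher and 10 lower in males, and 7 trithorax group genes were higher and 11 lower, beside 43.8% and 40.7% of all genes. For TRAP over total mRNA the medians of the Polycomb and trithorax lists were 0.41 and 0.21 in males and 0.05 and 0.01 in females.

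The genes whose level followed each member most closely over the 18 libraries were found by the root mean square difference of centred log2 CPM among 12502 genes. *hth* was followed most closely of all, by *pum* (0.0872), a translational repressor, and *Prosap* (0.0968), a scaffold protein of synapses. For *Antp* the nearest was *kirre* (0.110), a cell adhesion gene, for *abd-A* it was *Atf3* (0.113), for *exd* it was *Tsp96F* (0.124), a tetraspanin gene, and for *lab* it was CG1309 (0.128). The nearest genes of *Abd-B* (CG44838, 0.141), *Scr* (*qkr54B*, 0.149) and *Ubx* (CG5151, 0.159) were farther, and those of *pb* (CG5274, 0.1998) and *Dfd* (*14-3-3epsilon*, 0.204), the members with the fewest counts, farther still. Among the members themselves, *Antp* and *hth* were closest (0.211), ahead of *abd-A* and *exd* (0.257). These values describe likeness over shared libraries.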

How the data were processed

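Poly(A)-selected RNA from TRAP and total mRNA of whole pupae was sequenced in 18 libraries. The authors aligned reads to dm6 and deposited raw counts per exon record, without normalization. The submitters' processing notes name STAR 2.7.2a, SAMtools 1.2, featureCounts and edgeR; the annotation release and strand setting are not given in the sources used here. All 98 member records matched exons of the Ensembl annotation used.

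Counts were analysed in R 4.3.3 with edgeR 4.0.16 (limma 3.58.1) and TMM scaling. Records above 2 CPM in at least 60% of libraries entered edgeR's exact test (adjusted p under 0.2). Gene counts summed the longest record of each overlap group, 73 of the 98 member records. Genes above 1 CPM in as many libraries as the smaller group entered the quasi-likelihood test (adjusted p under 0.05), adjusted over all genes. An interaction term over 18 libraries tested the sex difference in enrichment, and diffSpliceDGE tested exon usage. CPM in the text uses plain library totals. Hox shares used exact two-sided permutation tests that ignored the lysate pairs. They were not adjusted, a departure from the planned Benjamini-Hochberg step. The procedures were tested on simulated data.

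Same-numbered TRAP and total mRNA libraries of a sex come from 1 lysate, and their deviations correlated in all 9 pairs (0.193 to 0.792). Alternatives were RLE scaling, total-count scaling, DESeq2 1.42.0, other filters and thresholds, non-overlapping records, replicate blocks and leaving out each library. All 10 members were named; named records were the most changed called record of each member in each direction, and named list genes at most the 2 with the largest called values in each list, comparison and direction. Members and lists were chosen with earlier results of these data known. The deposited table of normalized values of the whole series was not used.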

Additional observations from a re-analysis of the deposited data

Results flagged for a closer look

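In female TRAP replicate 2, *Scr* reached 32.0 CPM, against 12.8 to 15.1 CPM in the other 3 female TRAP libraries, and *Dfd* reached 2.25 CPM, against 1.10 to 1.21 CPM. Each gap passed Dixon's criterion for 1 value far from its group. Of 40 groups of 1 member and 1 kind of library that were examined, these 2 did so, and chance alone gives about 1 in 20. Without female TRAP replicate 2 the log2 fold change of TRAP over total mRNA in females was 0.04 for *Scr* and -0.38 for *Dfd*, and the sex difference in the enrichment of *Scr* was 0.97 (edgeR quasi-likelihood test, adjusted p = 0.0018). The cause was not tested.

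The enrichment of TRAP over total mRNA differed between the sexes by the interaction term for 6 members, each larger in males: 0.98 for *Antp*, 1.21 for *Ubx*, 0.82 for *abd-A*, 0.95 for *Abd-B*, 1.29 for *hth* and 0.59 for *exd* on the log2 scale with TMM. The median of all genes was 0.48 there, and 0 of these genes passed with RLE size factors.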

How the results depend on the processing

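Of 887 gene-level fold changes recomputed under an alternative, 828 kept their direction and their side of the threshold, 39 no longer passed, 17 newly passed and 3 reversed; 32 of the 39 belong to the sex difference in enrichment. Of the counts of called members and shares, 384 stayed within 1.5 times the original and 52 did not. The reversals were all *abd-A* with non-overlapping records only, which drops both of its ends: -0.16 (adjusted p = 0.627) for male TRAP over male total mRNA, 1.83 (adjusted p = 0.000931) for male over female total mRNA and -2.03 (adjusted p = 0.0336) for the sex difference.
For male TRAP against male total mRNA, records higher were 60 with no filter and 17 at a log2 fold change of at least 1 (28 as reported), records lower 8 with no filter (0), and genes lower 1 (*lab*) with total-count scaling, no filter, DESeq2, all records added, or the replicate block (0). For female TRAP, records higher were 45 with no filter (22), records lower 4 with no filter and 0 at the fold limit (2), and genes higher 5 with non-overlapping records (2). For male against female TRAP, records higher were 1 with total-count scaling, 8 with no filter, 0 at the fold limit and 15 with the replicate block (3), records lower 0 at the fold limit (6), genes higher 2 with RLE or DESeq2 and 0 with the block (1), and genes lower 0 with non-overlapping records (2). For total mRNA between the sexes, records higher were 0 with total-count scaling, 16 with no filter, and 0 at an adjusted p of 0.05 or the fold limit (2), records lower 34 with no filter and 0 at the fold limit (21), and genes lower 2 with the block (6). For the sex difference, records higher were 20 at the fold limit (37), records lower 5 with no filter (0), genes higher 0 with RLE, DESeq2 or non-overlapping records and 3 with total-count scaling (6), and genes lower 1 with non-overlapping records (0). Where the filter or threshold was changed, the count follows from it; elsewhere the cause was not tested.
Leaving out 1 library at a time gave 25 to 28 higher records and 0 to 1 lower genes in male TRAP over total mRNA, 20 to 25 higher and 2 to 3 lower records and 2 to 5 higher genes in females, 2 to 7 higher and 4 to 7 lower records and 2 to 3 lower genes between male and female TRAP, 0 to 3 higher and 20 to 24 lower records between the sexes in total mRNA, and 35 to 39 records and 5 to 7 genes for the sex difference. Usage gave 2 to 3 members in males and 4 to 5 in females, and shares 5 to 7, 1 to 3, 3 to 5 and 4 to 5.
Across the sexes a number marks no shared lysate and same-numbered libraries did not deviate together (-0.317 to 0.108). With the replicate block *lab* in TRAP (1.00, adjusted p = 0.0512) and *Scr*, *Antp*, *Ubx* and *hth* in total mRNA (adjusted p = 0.0845, 0.0511, 0.0618 and 0.0507) did not pass.
*Dfd* had 18 to 66 counts a library, and no record of *lab*, *pb* or *Dfd* passed the filter.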
